A study of Mus musculus with 10 samples.

Results

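The LIM-homeobox genes *Lhx1*, *Lhx2*, *Lhx3*, *Lhx4*, *Lhx5*, *Lhx6*, *Lhx8*, *Lhx9*, *Isl1* and *Isl2* were taken by gene symbol from the gene tables of *Wwc2*-deficient mouse embryos. All 10 were found, of 24302 genes listed. RNA had been sequenced from whole C57BL/6 embryos at embryonic day 11.5. The libraries came from 3 wildtype embryos, 3 heterozygous embryos (WWC2-/+) and 4 homozygous KO embryos (WWC2-/-), 10 embryos in all. Per the study's methods, *Wwc2* was deleted by a Cre recombinase under the *Zp3* promoter, which is active in growing oocytes. The value used here is the authors' mean normalized count of each gene, a single mean per gene. It was the same in the heterozygous and the homozygous KO table for all 24302 genes, to a relative difference of 1e-06, and is therefore read as a mean over the embryos of all genotypes, although the tables name no embryo. No value per embryo or per genotype was analysed here, so no spread, no test and no comparison between genotypes is given, and the genotypes could not be checked on these values. In RNA of whole embryos, fewer cells of a type and less RNA per cell cannot be told apart.

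LIM-homeodomain proteins are transcription factors with a pair of LIM domains, which bind cofactors, and a homeodomain, which binds DNA. In the neural tube, combinations of them are expressed as neurons leave the cell cycle, and the combination is known to set the subtype: ISL1 with LHX3 marks spinal motor neurons, LHX3 without ISL1 marks V2 interneurons, and LHX1 and LHX5, LHX2 and LHX9 mark classes of interneurons. Many members also act outside neurons. *Isl1* is expressed in heart progenitors, *Lhx1* in the kidney, *Lhx2* and *Lhx9* in the limb bud, *Lhx3* and *Lhx4* in the pituitary, and *Lhx6* and *Lhx8* in the first branchial arch. The mean over whole embryos sums these sources.

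Markers of neurons were present in these embryos, at levels near or above that of the highest member. All 6 neuron markers were detected, which means a mean normalized count above 0. So were 20665 of the 24302 genes, so detection alone does not set these markers or the gene lists below apart. The neuron markers ran from 453.9 mean normalized counts per kilobase of transcript for *Elavl4* to 5843 for *Tubb3*, a neuronal tubulin. All 5 markers of neural progenitors were detected too, from 151 per kilobase for *Pax6* to 3906 for *Fabp7*. Other tissues were represented as well. Per kilobase, *Hbb-y* of embryonic red blood cells reached 214939, *Nppa* of heart muscle 3045.5, *Actc1* of striated muscle 7314, *Afp* of liver and yolk sac 11751, *Cryaa* of lens 181 and *Prl3b1* of trophoblast 7991. These are the highest genes of their lists. The lowest were *Gata1* of red blood cells with 187, *Nkx2-5* of heart with 135, *Myf5* of skeletal muscle with 55.0 and *Ttr* of liver with 1531. For lens it was *Cryge* with 9.55, from a mean normalized count of only 6.59. The trophoblast list ranged down to 5.30 per kilobase for *Gcm1*. The paper names *Tpbpa* and *Psg21*, also of this list, among the most upregulated genes in homozygous KO embryos. It names *Alb* of the liver list and *Cryba1* and *Crybb1* of the lens list among the most downregulated. It also reports that downregulated genes were enriched in terms of the nervous system. The pooled levels of the marker lists and of the members therefore need not hold for each genotype. How they were divided among the genotypes was not tested here.

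Every member was detected, as were 20665 of the 24302 genes. The members' mean normalized counts ranged from 59.3 for *Lhx4* to 1308 for *Lhx2*. The highest value belonged to *Lhx2*, a factor of forebrain, eye and limb bud. *Isl1*, of motor and sensory neurons and heart progenitors, followed with a mean normalized count of 811. *Lhx9*, a close relative of *Lhx2*, had 664, and *Lhx5*, of dorsal interneurons and the diencephalon, had 645. *Lhx1* had 529. These counts grow with the length of the transcript and do not rank the genes against each other. The lower members were *Lhx6*, of cortical interneurons and the jaw, with a mean normalized count of 299, and *Isl2*, of motor and sensory neurons, with 254.5. *Lhx8*, needed for cholinergic neurons of the forebrain, had 213. *Lhx3*, of motor neurons, V2 interneurons and the pituitary, had 91.1. The sum over the 10 genes was 4874, of which the 3 members with the highest counts, *Lhx2*, *Isl1* and *Lhx9*, held 57.1%. In relation to all genes, the members took 0.0191% of the summed mean normalized counts, with *Lhx2* alone at 0.00512% and *Lhx4* at 0.000232%.

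Divided by the length of the longest coding transcript, *Lhx2* had 461 mean normalized counts per kilobase and stayed highest. *Isl1* followed with 322 and *Lhx5* with 240.0 per kilobase. Next came *Lhx1*, *Isl2* and *Lhx9*, with 137.5, 137.3 and 134.5 per kilobase, which lay within a few percent of each other and, with no spread between embryos at hand, cannot be ordered. *Lhx8* had 102.5 per kilobase and *Lhx6* 85.9. *Lhx3* had 41.0 and *Lhx4* 10.8, so the highest level per kilobase was 42.8 times the lowest. The length mattered most for *Lhx9* and *Lhx4*, whose longest coding transcripts have 4937 and 5514 bases, while the coding parts of the 10 genes are alike, between 1047 bases in *Isl1* and 1218 in *Lhx1* and *Lhx2*. Per kilobase of coding sequence *Lhx9* had 557 and ranked 3, and per kilobase of all annotated exons it had 69.9 and ranked 7. *Lhx2* was highest, *Lhx4* lowest and *Lhx3* next to lowest with each of the 3 lengths.

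**Figure D1:**
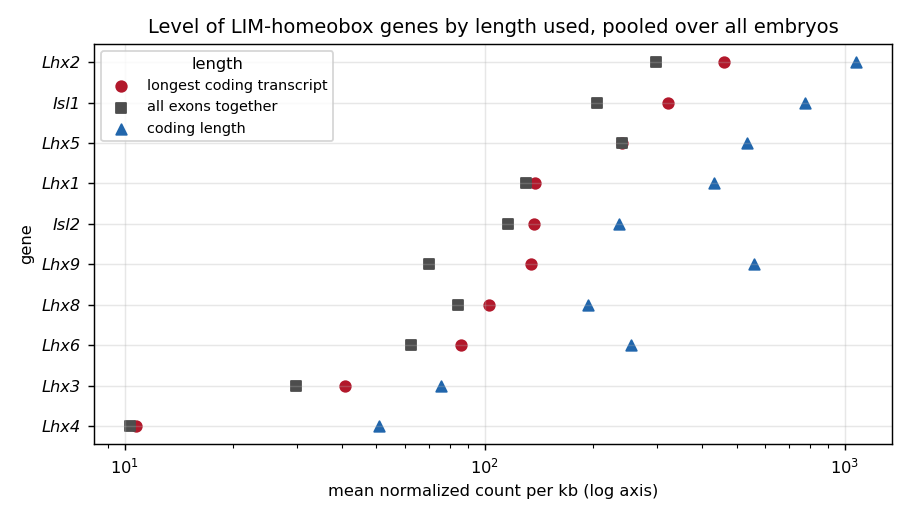
Mean normalized count per kilobase (x axis, log scale) of the 10 LIM-homeobox genes (y axis), pooled over all embryos and divided by the longest coding transcript (red circles), by all exons together (gray squares) or by the coding length (blue triangles). *Lhx2* is highest and *Lhx4* lowest with every length, while *Lhx9* lies between 69.9 and 557.

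Among the 19892 detected genes with an annotated transcript length, the members ranged from below to above the middle. *Lhx2* exceeded 77.7% of these genes per kilobase, *Isl1* 70.5% and *Lhx5* 64.8%. *Lhx1*, *Isl2* and *Lhx9* exceeded 54.4%, 54.4% and 54.1%, and *Lhx8* 49.98%. Below the median of all detected genes, which was 102.6 per kilobase, lay *Lhx8* by a small margin, *Lhx6*, *Lhx3* and *Lhx4*. *Lhx6* exceeded 47.6% of the genes, *Lhx3* 39.2% and *Lhx4* 27.4%. In all, 6 of the 10 members were above that median, and the members' own median was 135.9 per kilobase. Among genes whose mean normalized count was 10 or more, only 3 members, *Lhx2*, *Isl1* and *Lhx5*, were above the middle, and *Lhx1*, *Isl2* and *Lhx9* exceeded 41.1%, 41.0% and 40.6% of the genes. The pooled value does not tell how many cells of the embryo contributed to a member's level.

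**Figure D2:**
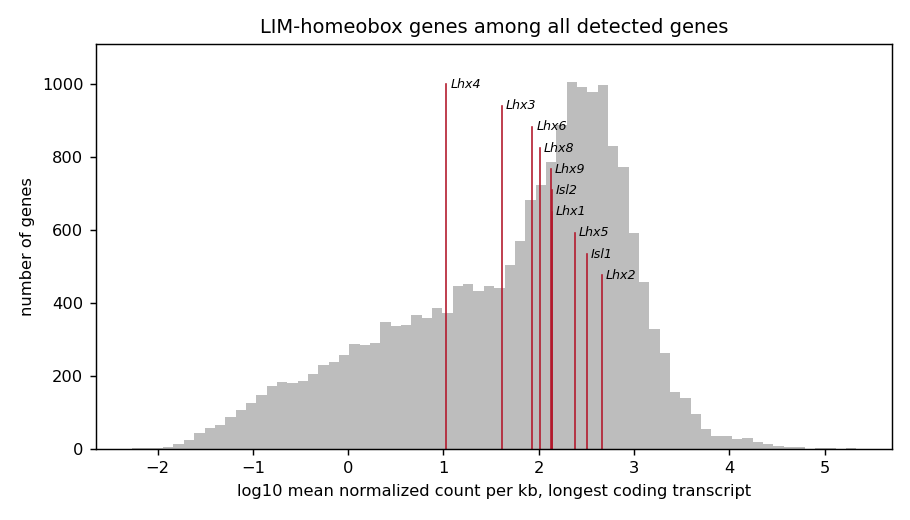
Number of genes (y axis) by log10 of the mean normalized count per kilobase (x axis) for the 19892 detected genes, with red lines at the 10 LIM-homeobox genes (their heights separate the labels only). *Lhx4* and *Lhx3* lie on the lower shoulder and *Lhx2* on the upper side of the main peak.

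The members fall into 5 pairs of close relatives, which share expression domains and in part replace each other. In the pair *Lhx2* and *Lhx9*, the level per kilobase of *Lhx2* was 3.43 times that of *Lhx9*. With the coding length the ratio was 1.93. *Isl1* had 2.35 times the level per kilobase of *Isl2*, or 3.28 times with the coding length. Both pairs thus kept their order with either length. *Lhx3* had 3.81 times the level per kilobase of *Lhx4*, and 1.49 times with the coding length. *Lhx5* had 1.75 times that of *Lhx1*, and 1.23 times with the coding length. In the pair *Lhx6* and *Lhx8* the direction depended on the length: *Lhx8* was 1.19 times *Lhx6* per kilobase of the longest coding transcript, while *Lhx6* was 1.31 times *Lhx8* per kilobase of coding sequence. All these ratios are between single pooled means and have no error.

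In the GENCODE M21 annotation of GRCm38 (mm10), the members lie on 7 chromosomes, and 0 of the 5 pairs share a chromosome. *Lhx2*, *Lhx3* and *Lhx6* lie on chromosome 2, *Lhx2* from 38339281 to 38369733 on the plus strand, *Lhx3* from 26200212 to 26208289 and *Lhx6* from 36081953 to 36105408, both on the minus strand. *Isl1* lies on the minus strand of chromosome 13 from 116298281 to 116309689, and *Isl2* on the plus strand of chromosome 9 from 55538672 to 55546180. *Lhx5* lies on the plus strand of chromosome 5 from 120431699 to 120441223, with 1 annotated transcript of 5 exons, and *Lhx1* on the minus strand of chromosome 11 from 84518284 to 84525535. *Lhx4* and *Lhx9* lie on the minus strand of chromosome 1, from 155698031 to 155751684 and from 138825186 to 138848577, and *Lhx8* on the minus strand of chromosome 3 from 154306294 to 154330659. The genes span from 7.25 kilobases in *Lhx1* to 53.6 in *Lhx4*.

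Antisense genes are annotated across 4 members, *Lhx2*, *Lhx3*, *Lhx5* and *Isl2*. *Lhx6* is overlapped on its own strand by *Gm27953*, annotated as miscellaneous RNA. None of these overlapping genes was matched to a gene that the authors listed, so no level can be given for them. The study's methods name a directional library kit, while whether the counting used the strand is not given in the sources used here. Whether reads of these overlapping transcripts entered the members' counts therefore cannot be told, and their part was not tested. *Lhx1os*, a noncoding RNA gene on the opposite strand that starts 125 bases from *Lhx1*, had a mean normalized count of 144 beside 529 for *Lhx1*. *AI606473*, 162 bases from *Lhx8* and also on the opposite strand, had 155.5 beside 213 for *Lhx8*. Both neighbors were thus detected at lower counts than the member beside them, with no length taken into account. Among the other listed neighbors within 5000 bases, *Qsox2*, 348 bases from *Lhx3* on the same strand, had 720 beside 91.1 for *Lhx3*. *Aatf* had 920.5 beside 529 for *Lhx1*, and *Scaper* 1010 beside 254.5 for *Isl2*. *Morn5* had 4.87 beside 299 for *Lhx6*, and *2310009B15Rik* 188 beside 664 for *Lhx9*.

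Of the other genes that work with these factors, the LIM cofactors had the highest median level in RNA of whole embryos. Their level in the cells that express a member is not known from these values. All 10 listed cofactors were detected, with a median of 458 mean normalized counts per kilobase against 135.9 for the members. *Ssbp3* and *Ldb1* were highest, with 2678 and 2059 per kilobase. LDB1 binds the LIM domains and joins LIM-homeodomain proteins into larger complexes, and SSBP3 binds LDB1. *Lmo3* and *Lmo1*, LIM-only proteins that compete for LDB1, were lowest with 47.6 and 249 per kilobase. The other listed LIM-only genes, *Lmo4* and *Lmo2*, had 1477 and 453 per kilobase. The LIM-homeobox genes outside the members, *Lmx1a* and *Lmx1b*, of roof plate, midbrain dopaminergic neurons and dorsal limb, had 119 and 50.4 per kilobase, within the range of the members.

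Transcription factors of motor neurons and their progenitors were detected for 12 of 12 genes, with a median of 70.4 per kilobase. *Foxp1*, which is also widely expressed outside the motor columns, had 375 per kilobase and *Neurog2*, a proneural factor, 306. *Onecut1* had 20.4 per kilobase and *Mnx1*, a defining gene of motor neurons, 21.9. Of the cholinergic genes, 4 of 4 were detected. *Ache*, which is also made outside neurons, and *Slc18a3*, the vesicular acetylcholine transporter, had 155 and 48.4 per kilobase, while *Slc5a7*, the choline transporter, and *Chat*, the acetylcholine-synthesizing enzyme, had 14.1 and 5.63. *Isl1* was thus higher per kilobase than every cholinergic gene, and *Lhx3*, at 41.0, was higher than *Chat*, *Slc5a7* and *Mnx1*.

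Transcription factors of spinal interneurons were detected for 22 of 22 genes, with a median of 58.8 per kilobase. *Gata2* and *Tal1*, which are also factors of blood cells, had 281 and 257 per kilobase, and *Evx2* and *Sim1*, of the V0 and V3 interneurons, had 10.5 and 26.7. Ventral forebrain genes were detected for 8 of 8 genes, with a median of 131 per kilobase. *Dlx5* and *Dlx2*, factors of GABAergic progenitors and of the branchial arches, had 215 and 199 per kilobase, and *Gbx1* and *Dlx6* had 9.38 and 36.3. *Nkx2-1*, which acts upstream of *Lhx6* and *Lhx8* in the ventral forebrain, had 102 per kilobase, beside 85.9 for *Lhx6* and 102.5 for *Lhx8*; it was named here after its value had been seen.

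**Figure D3:**
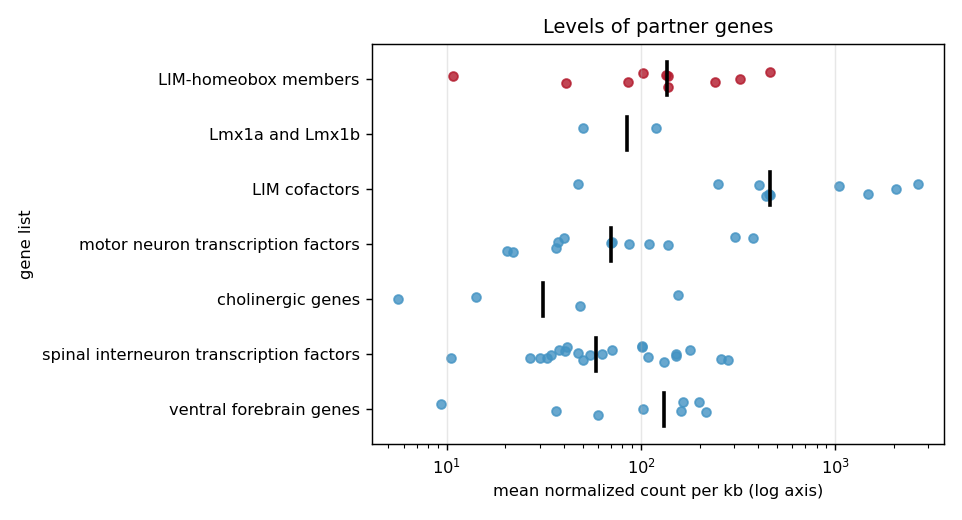
Mean normalized count per kilobase of the longest coding transcript (x axis, log scale) for each gene of a list (points), pooled over all embryos, with the list's median (black bar). The median is 458 for the LIM cofactors (y axis lists the gene groups), 135.9 for the LIM-homeobox members (red) and 31.3 for the cholinergic genes.

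Promoter windows from RefSeq on GRCm38.p6, which run from 250 bases before to 50 bases after a transcript's start, were matched for 9 of the 10 members (all but *Lhx5*), with 13 windows in all. They were rich in G and C, with a median of 65.7% and 19 CG dinucleotides per window, against 52.7% and 7 over the 32851 windows of all genes. *Lhx2* had the window with the highest content, 74.7%, and *Lhx8* the one with the lowest, 47.0% with 4 CG dinucleotides. The letters TATAAA, on either strand, were in 2 of the 13 windows, 1 each of *Lhx3* and *Lhx6*, which is 15.4% against 13.6% of all windows. The letters GGGCGG, on either strand, were in 7 of 13 windows (53.8% against 35.7%), and TAATTA, a core often bound by homeodomains and the same on both strands, was in 0 of 13 against 5.29% of all windows. These shares describe letters in the windows, and some genes have more than 1 window.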

How the data were processed

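RNA of 3 wildtype, 3 heterozygous and 4 homozygous KO embryos at embryonic day 11.5 was sequenced. Per the labels and the study's methods, the authors trimmed reads with Trimmomatic (version 0.33), aligned them to mm10 with HISAT2, sorted them with SAMtools, made counts per gene with HTSeq and ran DESeq2 on these. The annotation used for counting is not given in the sources used here. The authors deposited a table for heterozygous and a table for homozygous KO embryos, both against wildtype. Each table holds a mean normalized count per gene, a deposited signal that divides counts by each library's size factor and averages over embryos. It was equal in both tables for all 24302 genes (relative difference up to 1e-06), so it was taken as the mean over all genotypes. The other numeric columns hold the authors' own comparison (log2 fold change, its standard error, a statistic, p-values), and they were not used. The mean was read from the heterozygous table. The homozygous KO table served for gene symbols and this check.

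The means sum to 25560890 normalized counts, the average depth per embryo on that scale, and depth per embryo is unknown. Of 24302 genes, 20665 had a mean above 0 (detected), and 23353 were matched to GENCODE M21 by Ensembl identifier or, failing that, by symbol. Means were divided by the length of the longest protein-coding transcript. Each member was ranked among detected genes with such a length. No test was possible on a pooled mean. The functions for exon lengths and ranks were tested on simulated data (Python 3.11.15, pandas 2.3.3, numpy 2.4.6). The members and the gene lists were chosen with earlier results of these data known. All 10 members were named, and of each list of partner genes the 2 genes with the highest and the 2 with the lowest level per kilobase. Of each list of cell type markers the highest and the lowest gene were named, chosen after their values were seen. *Tpbpa*, *Psg21*, *Alb*, *Cryba1* and *Crybb1* were named because the paper lists them. Coding length, the length of all exons together, a filter at a mean of 10 and a sum without globin genes were tried as alternatives.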

Additional observations from a re-analysis of the deposited data

How the results depend on the processing

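No paired analysis was possible because the value is 1 mean over all embryos, and for the same reason no embryo could be left out and no count test, normalization or filter on counts per embryo could be tried. The median level of the members was 135.9 mean normalized counts per kilobase with the longest coding transcript, 344 with the coding length and 100.1 with the length of all exons together, the last added after seeing the data. The members' share was 0.0191% of the summed mean normalized counts, or 0.0193% without the 10 globin genes in the sum. The median percentage of genes below the members was 54.2%, and 40.8% among the 15385 genes with a mean of at least 10. Read from the homozygous KO table, the mean was the same for all 24302 genes. Lengths of the transcripts used by these embryos are not known, which limits every comparison per kilobase, and whether the counting used the strand is not known.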
